A study of Mus musculus with 4 samples.

Results

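The 10 genes described here encode cyclins and cyclin-dependent kinases, the proteins that drive the cell cycle. They are the D-type cyclins Ccnd1, Ccnd2 and Ccnd3, the E-type cyclins Ccne1 and Ccne2, the cyclins Ccna2 and Ccnb1, and the kinases Cdk1, Cdk2 and Cdk4. They were chosen by name, with earlier results of these data known. Each matched 1 row by gene symbol among the 32285 genes of the count table. All 10 passed the filter on low counts, which kept 16005 genes. RNA was sequenced from GS cells, which are spermatogonia kept in culture, derived from testes of mice aged 10 days. There were 2 libraries of strain 129 and 2 of strain C57BL/6 (B6). The titles mark both B6 libraries as F0 and neither 129 library, so strain and that mark cannot be told apart. All cells were wild-type. Whether libraries of 1 strain stem from different animals or cultures is not in the labels. The p-values can speak only of spread among these libraries, part of which may be technical.

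A cyclin binds a kinase and switches it on. D-type cyclins act with Cdk4 in G1 and start the inactivation of the retinoblastoma protein, which releases E2F transcription factors. E-type cyclins act with Cdk2 at entry into S phase, cyclin A2 acts with Cdk2 and Cdk1 in S and G2, and cyclin B1 acts with Cdk1 at entry into mitosis. D-type cyclin genes answer to growth factors outside the cell, whereas Ccna2, Ccnb1 and Cdk1 are transcribed mainly in late phases of the cycle. In mice, Ccnd2 is known for its expression in spermatogonia and for its role in their self-renewal in culture.

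The question asked of each gene was whether its level differed between 129 and B6 cells. Values are CPM, counts scaled to library size with TMM factors. Each log2 fold change sets 129 over B6 and is given with its standard error, SE. Library totals were 20798809 and 20375086 counts in 129, and 25374801 and 20488618 counts in B6. No member passed edgeR's quasi-likelihood test with Benjamini-Hochberg adjustment at 0.05, where 2.86% of all genes tested did. At an unadjusted p under 0.05 there were 3 members, Ccnd2, Ccnb1 and Ccnd1, against 28.1% of all genes. DESeq2 called 2 members, Ccnd2 higher and Ccnb1 lower in 129, beside 15.3% of all genes (9.63% higher, 5.7% lower), and limma-voom called 0 beside 1.64%. edgeR's calls were higher in 129 for 1.84% of all genes. A log2 fold change of at least 0.5 in size was found in the same 3 members, beside 47.9% of all genes. Of the 10 members, 5 had a positive and 5 a negative log2 fold change, with a median of 0.040, beside 0.015 over all genes. In 6 members both libraries of a strain lay above both of the other, 3 higher and 3 lower in 129, beside 60.1% of all genes (31% higher, 29.2% lower). On the last measure the members' share equals the background. It was also near the background at an unadjusted p under 0.05 and in DESeq2, and below it for a log2 fold change of at least 0.5 in size.

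**Figure D1:**
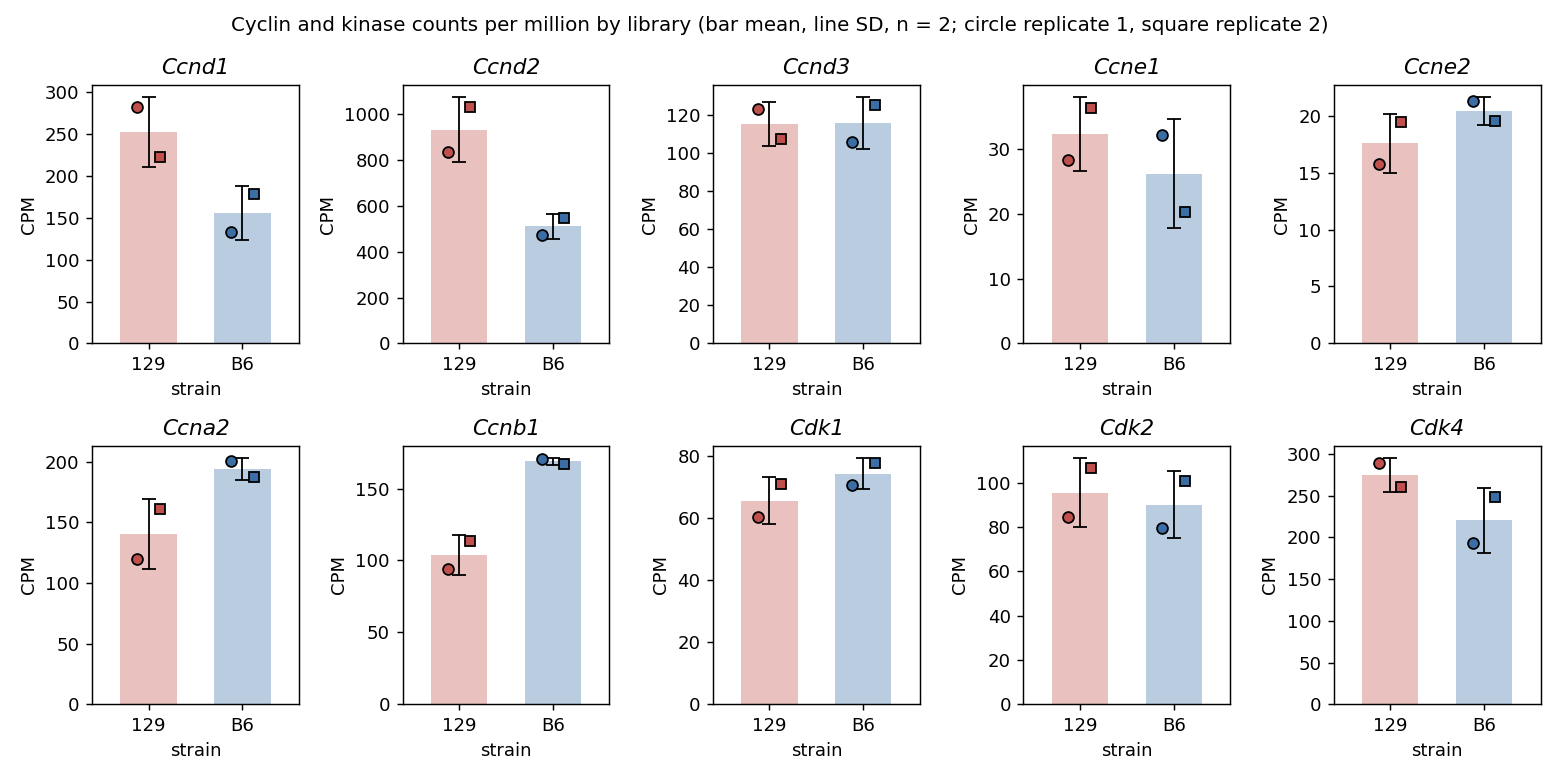
CPM (vertical axis, from 0) of each gene in strain 129 and strain B6; points are libraries, bars means and lines SD over n = 2. Ccnd1, Ccnd2 and Cdk4 lay higher in both 129 libraries, Ccne2, Ccna2 and Ccnb1 lower, and the other genes overlapped.

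Among the D-type cyclins, Ccnd2 and Ccnd1 were the members with the largest positive differences, and Ccnd3 was nearly equal between strains. Ccnd2 was at 835 and 1034 CPM in 129 and at 473 and 550.1 CPM in B6. Both 129 libraries lay above both B6 libraries, and the gap between strains was wider than either gap between replicates. Its log2 fold change was 0.87 (SE 0.19, 95% interval 0.42 to 1.32), with an edgeR adjusted p of 0.055. In DESeq2 the same gene passed (log2 fold change 0.86, adjusted p = 0.010). It also passed in edgeR with library totals (adjusted p = 0.047) or upper-quartile factors (adjusted p = 0.049) in place of TMM. Ccnd2 (ENSMUSG00000000184) lies on chromosome 6, at chr6:127125162-127152193 of GRCm38, on the minus strand. Its exons share 368 bases with the antisense gene 9330179D12Rik, at 13 and 17 counts in 129 and 18 and 22 counts in B6, and 372 bases with the antisense gene Gm43126, at 0 and 0 counts in 129 and 1 and 0 counts in B6.

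Ccnd1, the D-type cyclin most often linked to mitogen signals, was at 282 and 223 CPM in 129 and at 133 and 179 CPM in B6. The strains did not overlap, but their nearest libraries, 223 CPM in 129 and 179 CPM in B6, were no further apart than the libraries within a strain. The log2 fold change was 0.70 (SE 0.22, 95% interval 0.16 to 1.23), and the gene did not pass (edgeR adjusted p = 0.11, DESeq2 adjusted p = 0.088). Ccnd1 (ENSMUSG00000070348) lies at chr7:144929931-144939925 on the minus strand. It shares 1100 exon bases with LTO1 on the opposite strand, which had 17.2 and 17.7 CPM in 129 and 14.5 and 11.4 CPM in B6. Ccnd3 was at 124 and 107 CPM in 129 and at 106 and 126 CPM in B6. Its libraries interleaved, with a log2 fold change of -0.0050 (SE 0.20, 95% interval -0.47 to 0.46), so a difference within that interval remains possible. Ccnd3 (ENSMUSG00000034165) lies at chr17:47505051-47599691 on the plus strand. It shares 361 exon bases with Bysl on the opposite strand, at 73.3 and 75.6 CPM in 129 and 72.4 and 76.1 CPM in B6. It has near-identical stretches in other genes, among them Ccnd3-ps, which was not found by symbol among the counted genes. The sign of the Ccnd3 value turned with library totals (0.039), upper-quartile factors (0.0089) and a stricter filter (0.034).

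Counts of the D-type cyclins added up to 1240.0 and 1365 CPM in 129 and to 712 and 854 CPM in B6. Levels of different genes were compared per kilobase of annotated exons. On that scale Ccnd2 made up 54.5% and 64.8% of the summed D-type level in 129 and 55.5% and 52.8% in B6. Ccnd1 made up 36.8% and 28.0% in 129 and 31.2% and 34.3% in B6. On this scale both shares overlapped between strains. The share of Ccnd3 was 8.65% and 7.23% in 129 and 13.4% and 12.9% in B6, so it was lower in both 129 libraries, with means apart by -5.21 percentage points (129 minus B6). An exact two-sided permutation test over the 4 libraries gave p = 0.333 for Ccnd3, the smallest value that 2 against 2 can reach, p = 0.667 for Ccnd2 and p = 1 for Ccnd1. In all 7 shares and ratios were tested in this way, and adjusted over these 7 no p was below 0.583. Length matters here: the annotated exons of Ccnd3 cover 8775 bases in union, but its longest coding transcript holds 2113. With the transcript length Ccnd3 stood at 22% and 18.6% in 129 and 31.3% and 30.6% in B6. On that scale the share of Ccnd2 no longer overlapped, at 49.6% and 59.6% in 129 and 46.5% and 44.8% in B6 (exact two-sided permutation p = 0.333, unadjusted).

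**Figure D2:**
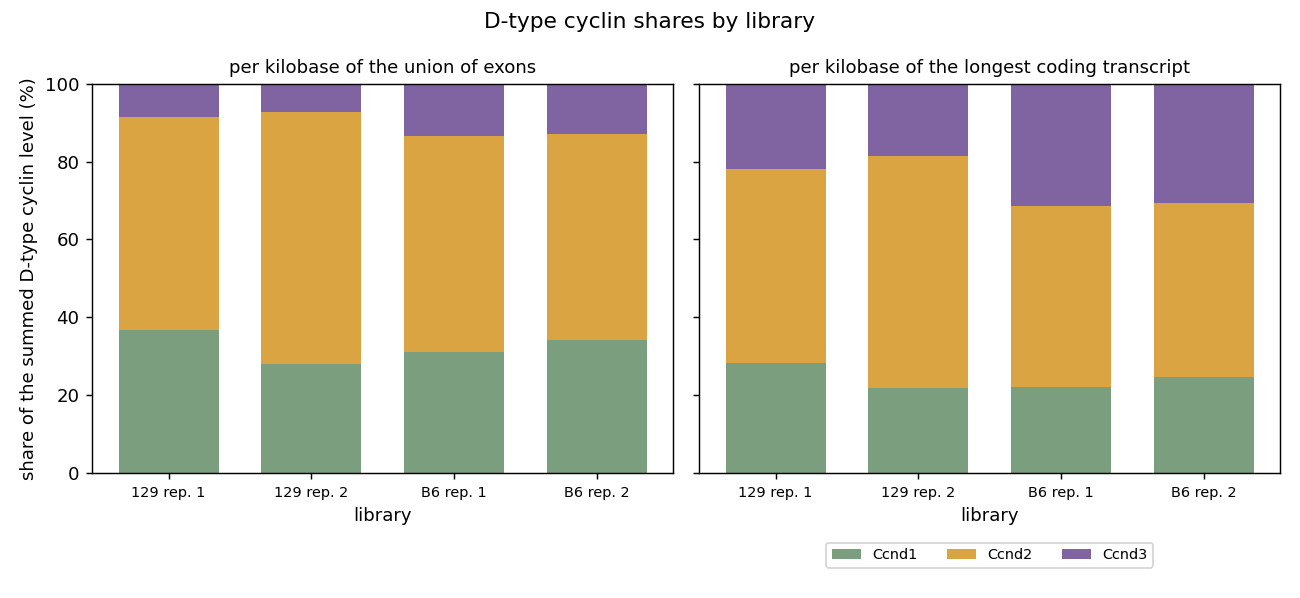
Share (%) of Ccnd1, Ccnd2 and Ccnd3 in the summed D-type cyclin level in each library, with levels per kilobase of the union of exons (left) or of the longest coding transcript (right). Ccnd2 is the largest share in all 4 libraries on either scale, and the Ccnd3 share is lower in both 129 libraries.

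Cdk4, the kinase partner of the D-type cyclins, was at 289 and 261 CPM in 129 and at 193 and 248 CPM in B6. Both 129 libraries were above both B6 libraries, with 261 CPM in 129 close to 248 CPM in B6. The log2 fold change of 0.32 (SE 0.20, 95% interval -0.15 to 0.79) did not pass (edgeR adjusted p = 0.34, DESeq2 adjusted p = 0.49). Cdk4 (ENSMUSG00000006728) lies at chr10:127063534-127067920 on the plus strand of GRCm38, and 641 bases of its exons are shared with Tspan31 on the opposite strand. Tspan31 had 2289 and 1159 counts in 129 and 820 and 853 counts in B6, against 5988 and 5497 counts of Cdk4 in 129 and 4807 and 5008 in B6. How strand was handled in counting was not given in the sources used here, and the part of Tspan31 reads in the Cdk4 value was not tested.

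The promoter of Cdk4 is shown because it holds a run of E-boxes, the motif that Myc and its partner Max bind. RefSeq promoters (GRCm38.p6, 250 bases before to 50 after the start site) matched 6 of the 10 genes. Not matched were Ccnd1, Ccnd2, Ccne2 and Ccna2. The Cdk4 promoter lies at chr10:127063285-127063584 on the plus strand, and its capitals mark CACGTG, which reads the same on both strands.
Cdk4: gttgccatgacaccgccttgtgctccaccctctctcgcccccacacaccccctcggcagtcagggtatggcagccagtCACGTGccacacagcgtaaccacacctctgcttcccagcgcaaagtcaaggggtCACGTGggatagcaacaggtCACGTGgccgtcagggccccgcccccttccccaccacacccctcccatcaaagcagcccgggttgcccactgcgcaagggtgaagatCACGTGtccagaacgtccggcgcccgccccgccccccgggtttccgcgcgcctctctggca
The motif began at -172, -118, -98 and -11 bases from the start site. It was present in 7.15% of the 32851 mouse promoters in that table. The windows of the other 5 matched genes did not hold these letters. Mycn, a Myc gene of spermatogonial stem cells, was at 85.4 ± 13.8 CPM in 129 and 66.2 ± 13.0 CPM in B6 (SD, n = 2 each; log2 fold change 0.37, SE 0.24), without passing (edgeR adjusted p = 0.36). Myc was at 21.6 ± 15.0 CPM in 129 and 6.90 ± 0.302 CPM in B6 (log2 fold change 1.64, SE 0.55, edgeR adjusted p = 0.12). Mycl, the other Myc gene listed, had a negative value, at 25.2 ± 9.48 CPM in 129 and 70.3 ± 43.0 CPM in B6 (log2 fold change -1.48, SE 0.48, edgeR adjusted p = 0.11). DESeq2 called Myc higher and Mycl lower. All 3 were named after their values were seen.

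The E-type cyclins had the lowest levels of the set and the widest intervals. Ccne1 was at 28.4 and 36.4 CPM in 129 and at 32.2 and 20.3 CPM in B6. The B6 libraries lay 0.66 apart on the log2 scale, a wider gap than the strain difference of 0.30 (SE 0.33, 95% interval -0.48 to 1.08; edgeR adjusted p = 0.59). Without B6 replicate 1 the Ccne1 value was 0.67, and without B6 replicate 2 it was -0.033. Ccne2 was at 15.7 and 19.4 CPM in 129 and at 21.3 and 19.6 CPM in B6. Its strains were apart only by the small step between 19.4 CPM in 129 and 19.6 CPM in B6, with a log2 fold change of -0.22 (SE 0.31, edgeR adjusted p = 0.69). Ccne1 (ENSMUSG00000002068) lies at chr7:38097984-38107534 on the minus strand and Ccne2 (ENSMUSG00000028212) at chr4:11191351-11204779 on the plus strand, where it shares 609 exon bases with Ints8 on the other strand. Per kilobase, the log2 ratio of Ccne1 to Ccne2 was 1.24 and 1.30 in 129 and 0.99 and 0.45 in B6. Ccne1 was thus the more abundant E-type cyclin in each library, and the ratio was higher in both 129 libraries (exact two-sided permutation p = 0.333, the smallest possible).

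Cdk2, the kinase of the E-type and A-type cyclins, was at 84.6 and 107 CPM in 129 and at 79.5 and 101 CPM in B6. The libraries interleaved, and the log2 fold change was 0.086 (SE 0.23, 95% interval -0.45 to 0.62; edgeR adjusted p = 0.83). The libraries within a strain lay further apart than the strain means, with 84.6 against 107 CPM in 129 and 79.5 against 101 CPM in B6. Cdk2 (ENSMUSG00000025358) lies at chr10:128697939-128705031 on the minus strand and shares 34 exon bases with Pmel on the opposite strand. Between the kinases, the log2 ratio of Cdk4 to Cdk2 per kilobase was 2.71 and 2.23 in 129 and 2.22 and 2.24 in B6, with 129 replicate 1 apart from the other libraries (exact two-sided permutation p = 0.667).

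The late-cycle cyclins Ccna2 and Ccnb1 were the members with the largest negative differences. Ccnb1, which brings Cdk1 to its mitotic targets, was at 94.2 and 114 CPM in 129 and at 171 and 167 CPM in B6. The gap between strains was wider than that between the libraries of either, and the B6 libraries were almost equal. The log2 fold change was -0.70 (SE 0.19, 95% interval -1.15 to -0.25), with an edgeR adjusted p of 0.079. DESeq2 called it lower in 129 (log2 fold change -0.71, adjusted p = 0.040). Ccnb1 (ENSMUSG00000041431) lies at chr13:100778650-100786570 on the minus strand. The GENCODE M21 annotation holds 5 other genes, Ccnb1-ps among them, with stretches of at least 76 bases at 97% identity or more to Ccnb1 transcripts. The longest match was 1294 bases. None of the 5 was found by symbol among the counted genes. How reads matching several loci were counted was not given in the sources used here. The Ccnb1 value is uncertain to that extent.

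Ccna2, the S and G2 phase cyclin, was at 119.9 and 161 CPM in 129 and at 200.3 and 188 CPM in B6. Both 129 libraries were lower, but the gap to B6 was smaller than that between the 129 libraries. Its log2 fold change of -0.47 (SE 0.21, 95% interval -0.96 to 0.027) did not pass (edgeR adjusted p = 0.20, DESeq2 adjusted p = 0.27). Without 129 replicate 1 the value was -0.27, and without 129 replicate 2 it was -0.69. Ccna2 (ENSMUSG00000027715) lies at chr3:36564865-36572150 on the minus strand. It shares 510 exon bases with Exosc9 on the opposite strand, which was at 38.4 and 40.2 CPM in 129 and 38.8 and 54.8 CPM in B6.

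Cdk1, the mitotic kinase, was at 60.3 and 71.1 CPM in 129 and at 70.9 and 78.0 CPM in B6. Its strains overlapped slightly, and the log2 fold change was -0.18 (SE 0.21, 95% interval -0.68 to 0.32; edgeR adjusted p = 0.62). Cdk1 (ENSMUSG00000019942) lies at chr10:69335146-69352938 on the minus strand. Per kilobase, the log2 ratio of Ccnb1 to Cdk1 was 0.87 and 0.91 in 129 and 1.49 and 1.33 in B6. That ratio was lower in both 129 libraries, with a mean difference of -0.52 (exact two-sided permutation p = 0.333, the smallest possible). The log2 ratio of Ccna2 to Cdk2 was likewise lower in both 129 libraries, at 1.11 and 1.20 in 129 and 1.94 and 1.50 in B6 (p = 0.333 by the same exact permutation test).

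The promoters of Ccnb1 and Cdk1 are shown because, in the spellings searched, these partner genes matched partly different motifs known from late-cycle genes. The Ccnb1 promoter lies at chr13:100786437-100786736 and that of Cdk1 at chr10:69352863-69353162, both on the minus strand of GRCm38.p6. Capitals mark CCAAT boxes (CCAAT, or ATTGG on the other strand), the cell cycle homology region (CHR, TTTGAA) and E2F-type letters (TTTCCCGC, TTTCGCGC, TTTGCCGC or TTTGGCGC), searched on both strands.
Ccnb1: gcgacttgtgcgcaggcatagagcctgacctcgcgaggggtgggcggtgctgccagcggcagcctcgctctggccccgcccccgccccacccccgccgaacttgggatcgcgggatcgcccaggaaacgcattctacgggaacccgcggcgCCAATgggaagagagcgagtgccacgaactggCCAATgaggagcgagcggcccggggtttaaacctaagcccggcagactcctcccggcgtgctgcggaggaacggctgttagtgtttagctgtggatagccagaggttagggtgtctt
Cdk1: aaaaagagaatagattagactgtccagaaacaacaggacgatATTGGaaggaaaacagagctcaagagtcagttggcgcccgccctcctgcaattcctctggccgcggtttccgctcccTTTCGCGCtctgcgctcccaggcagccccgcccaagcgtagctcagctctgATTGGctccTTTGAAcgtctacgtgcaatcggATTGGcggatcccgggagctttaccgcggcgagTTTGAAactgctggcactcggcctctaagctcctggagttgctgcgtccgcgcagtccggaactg
Ccnb1 held CCAAT boxes at -99 and -67 bases from the start site, and no match to the CHR or E2F-type spellings searched. Cdk1 held CCAAT boxes at -208, -80 and -48, CHR letters at -71 and -15, and an E2F-type match at -131. Cdk2, whose promoter is not printed, held a CCAAT box at -45 and an E2F-type match at -140. Of all promoters in the table, 37.4% hold a CCAAT box, 17.9% the CHR letters and 2.26% an E2F-type match. A match describes letters only. Other spellings of these motifs were not searched, and no match says nothing of them or of a factor outside these windows.

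**Figure D3:**
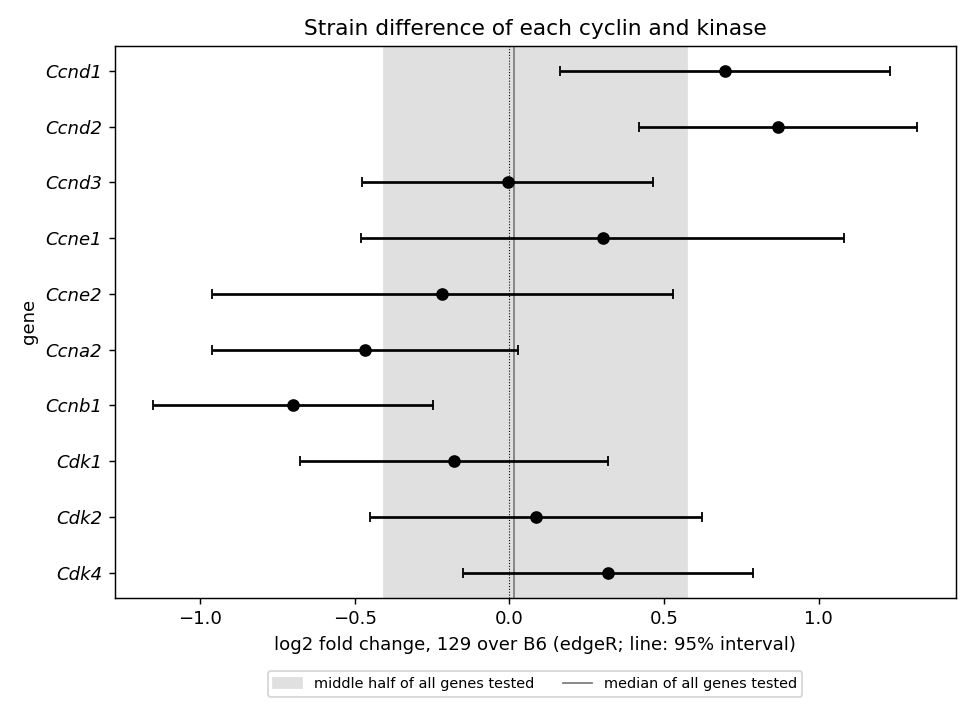
edgeR log2 fold change, 129 over B6 (horizontal axis), of each gene with its 95% interval; the grey band runs between the quartiles of all 16005 genes, -0.40 to 0.58, and the grey line their median of 0.015. The intervals of Ccnd1, Ccnd2 and Ccnb1 leave out 0, and the other 7 include it.

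Set side by side, summed counts of D-type cyclins were 5.79 and 4.97 times those of Ccna2 plus Ccnb1 in 129, and 1.92 and 2.41 times in B6. This ratio was not tested and is not per kilobase. It sets a sum with the members of largest positive value, Ccnd2 and Ccnd1, over those of largest negative value, Ccnb1 and Ccna2. Its gap between strains therefore restates those values. Summed germ cell markers were lower in both 129 libraries, at 2456 and 3233 CPM in 129 and 3898 and 4010 CPM in B6, and their part in these values was not tested. Scaling to 12 germ cell marker genes in place of all genes moved every value upward, since 10 of those markers had a negative value themselves. The median of all genes then stood at 0.57, and values are read against it. Ccnd2 was at 1.41, Ccnd1 at 1.28, Ccnd3 at 0.57, Ccna2 at 0.067 and Ccnb1 at -0.16. Ccnd2 and Ccnd1 passed (edgeR adjusted p = 0.025 and 0.044), but that test is against 0 and not against the moved median. With this scaling edgeR called 1454 of 16005 genes higher in 129 and 99 lower. Ccna2, Ccne2 (0.32) and Cdk1 (0.37) thus changed sign, but lay below the median of all genes, as before.

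Per kilobase of exons, Ccnd2 and Cdk4 headed the set in both strains. In 129 the order was Ccnd2 at 99.3 ± 15.0, Cdk4 at 84.6 ± 6.23, Ccnd1 at 53.6 ± 8.83, Ccna2 at 34.4 ± 7.07 and Ccnb1 at 24.7 ± 3.29 CPM per kilobase (SD, n = 2). Below them came Cdk2, Cdk1, Ccnd3 and Ccne1, at 12.2 to 15.4, and Ccne2 at 5.03. In B6 the order began with Cdk4 at 67.9 ± 11.9, Ccnd2 at 54.4 ± 5.81, Ccna2 at 47.5 ± 2.21, Ccnb1 at 40.1 ± 0.559 and Ccnd1 at 33.1 ± 6.85 CPM per kilobase (SD, n = 2). Ccnd1 thus stood above Ccna2 and Ccnb1 in 129 and below both in B6. In 129 the ranges of Ccnd2 and Cdk4 overlapped, as did those of each neighbour from Cdk2 down to Ccne1, and in B6 those of Cdk1, Cdk2 and Ccnd3 did. Counted over the longest coding transcript instead, Ccnd3 stood at place 4 in 129 and 5 in B6, and Cdk1 at place 9 in 129 and 8 in B6. Among all genes tested, Ccnd2 stood at the 97.7 and 98.6 percentile per kilobase in 129 and at 94.3 and 95.3 in B6, and Ccne2 at 44.6 and 51.6 in 129 and at 54.8 and 52.4 in B6.

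**Figure D4:**
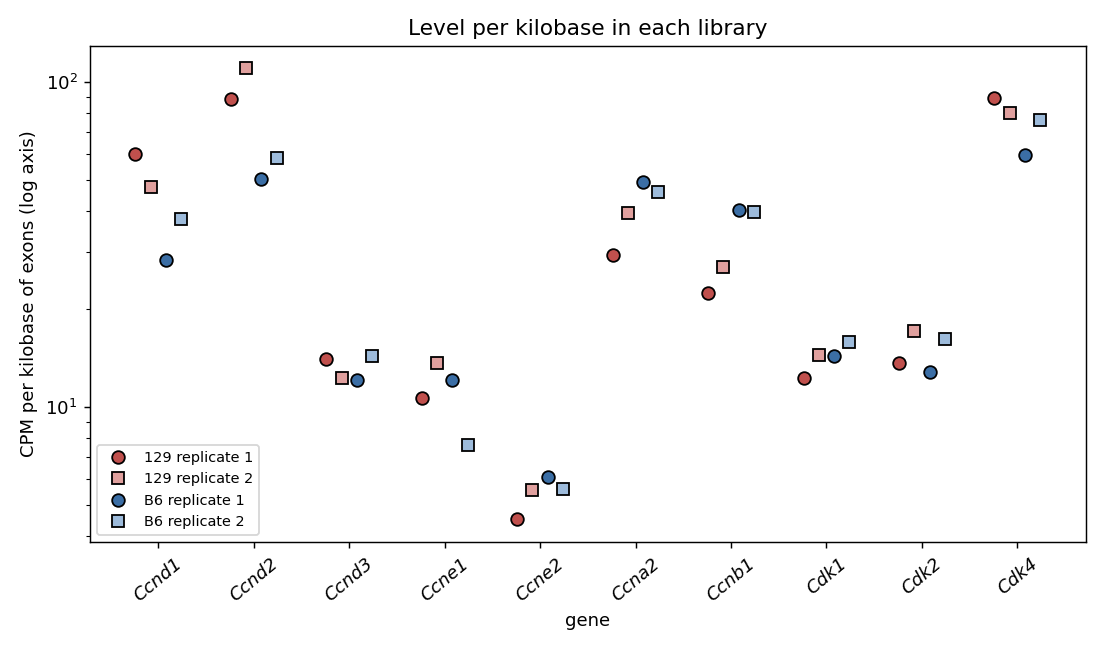
CPM per kilobase of the union of exons (vertical axis, log scale) of each gene in each library. Ccnd2 and Cdk4 lie highest, Ccne2 lowest at 4.51 to 6.08, and the Ccnd1 points pass those of Ccna2 and Ccnb1 in 129 but not in B6.

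Position on the chromosomes was compared with the values of neighbouring genes of at least 10 CPM. On chromosome 6, where Ccnd2 lies, 493 other genes had a median log2 fold change of 0.22, against -0.041 on the other autosomes, and Ccnd2 lay 0.65 above its chromosome's median. The 6 such genes within 1 Mb of Ccnd2 had a median of 0.17 and a range of -0.23 to 0.57. Around Ccna2, 13 genes within 1 Mb had a median of -0.50, close to the -0.47 of Ccna2 itself, beside -0.15 over chromosome 3. Around Cdk4, 27 genes had a median of 0.47, above the 0.32 of Cdk4, beside 0.069 over chromosome 10. Of these 27, 3 passed edgeR's test, beside 3.04% of all genes of at least 10 CPM. Ccnb1, at -0.70, lay further below 0 than the median of chromosome 13, at -0.14, and that of 15 genes within 1 Mb, at -0.14. Ccnd1, at 0.70, had the opposite sign to the median of chromosome 7, at -0.11, and that of 7 genes within 1 Mb, at -0.20. The part of the chromosome in a member's value was not tested.

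The genes with the pattern nearest to a member were found by the distance between centred log2 CPM over the 4 libraries, among 10261 genes of at least 10 CPM. For Ccnd2, the member with the largest absolute fold change, they were B4galt3 (distance 0.063, log2 fold change 0.87), Zfp618 (0.065, 0.82) and the mitochondrial gene mt-Nd2 (0.081, 0.82). None of these passed in edgeR (adjusted p = 0.068, 0.082 and 0.062). For Ccnd3, the member with the smallest, they included Vps53 (distance 0.016, log2 fold change 0.0013) and Sipa1 (0.026, 0.019).

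Among the cell cycle gene lists around the 10 genes, the mitosis genes were the list with edgeR calls. Of 18 tested, 3 fell in 129 by edgeR (1.02% of all genes did), 0 rose and 15 did not pass. The list median was -0.53, beside 0.015 over all genes. DESeq2 called 8 lower, beside 5.7% of all genes, and limma-voom called 1. Mki67, a marker of cycling cells, was at 203 ± 28.9 CPM in 129 and 477 ± 9.38 CPM in B6 (SD, n = 2 each; log2 fold change -1.23, SE 0.18, edgeR adjusted p = 0.034). Top2a, which untangles DNA before chromosomes part, was at 419 ± 51.7 CPM in 129 and 796 ± 1.58 CPM in B6 (log2 fold change -0.93, SE 0.17, edgeR adjusted p = 0.048). Cenpf, a kinetochore protein gene named after its values were seen, was at 239 ± 58.4 CPM in 129 and 549 ± 72.9 CPM in B6 (log2 fold change -1.20, SE 0.23, edgeR adjusted p = 0.049). No call in this list survived leaving out B6 replicate 1, where edgeR called 0 genes in all; the adjusted p of Mki67 was then 0.17. It was 0.17 without 129 replicate 1, 0.033 without 129 replicate 2 and 0.11 without B6 replicate 2. The adjusted p of Top2a was 0.24 without 129 replicate 1, 0.050 without 129 replicate 2, 0.19 without B6 replicate 1 and 0.13 without B6 replicate 2, so that call was lost in each case. The log2 fold changes in these fits ran from -1.39 to -1.09 for Mki67 and from -1.06 to -0.80 for Top2a. With germ cell marker scaling the list's median was 0.012, beside 0.57 over all genes, with Mki67 at -0.69 (adjusted p = 0.075) and Top2a at -0.38 (adjusted p = 0.23). In that list 15 of 18 genes were lower in both 129 libraries, beside 29.2% of all genes. The list was chosen with earlier results of these data known, so its shares describe these genes and test nothing. Foxm1, a transcription factor of late-cycle genes, had a positive log2 fold change of 0.52, at 221 ± 45.7 CPM in 129 and 153 ± 15.1 CPM in B6, without passing (edgeR adjusted p = 0.17), and was also named after its values were seen.

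In the lists that follow, counts at an unadjusted p under 0.05 stand beside 28.1% of all genes. Calls stand beside 2.86% in edgeR, 15.3% in DESeq2 and 1.64% in limma-voom. In the 18 replication genes, which E2F factors switch on, edgeR, DESeq2 and limma-voom called 0. There 3 were at an unadjusted p under 0.05, with a median of -0.19. Mcm2 and Mcm4 encode subunits of the replicative helicase; the log2 fold change was -0.0079 (SE 0.21) for Mcm2 and -0.15 (SE 0.22) for Mcm4. Of the 13 Rb and E2F family genes edgeR called 0 and 4 were at an unadjusted p under 0.05 (median -0.12). E2f6, a repressor of the family, was at -0.93 (SE 0.22, edgeR adjusted p = 0.063) and was the single DESeq2 call, and Tfdp1, a partner of E2F proteins, at -0.13 (SE 0.19); limma-voom called 0. Among the 10 Myc family genes edgeR and limma-voom called 0, with 3 at an unadjusted p under 0.05 (median -0.20), and DESeq2 called Mga lower besides Myc and Mycl. Mga, a Max partner that represses germline genes, was at -1.09 (SE 0.26) and Mxd4, a Myc antagonist, at -0.25 (SE 0.20).

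The other 17 cyclins had 0 edgeR and limma-voom calls and 6 at an unadjusted p under 0.05, with a median of -0.075. DESeq2 called 2 of them, Ccng1, a p53 target, higher at 1.21 (SE 0.27 in edgeR) and Ccnb3, a meiotic cyclin, lower at -1.51 (SE 0.44). The abundant Ccnl2 and Ccni were at 0.46 (SE 0.17) and 0.047 (SE 0.17). Ccnb2, the close relative of Ccnb1, was at 77.3 ± 13.8 CPM in 129 and 81.4 ± 9.86 CPM in B6 (log2 fold change -0.075, SE 0.22), and was named after its values were seen. The other 15 kinases had 0 calls by edgeR and limma-voom, 5 at an unadjusted p under 0.05 and a median of 0.028. In DESeq2, Cdk5 and Cdk18 passed higher and Cdk12 lower. Cdk12, which phosphorylates RNA polymerase II, was at 170 ± 23.4 CPM in 129 and 319 ± 30.3 CPM in B6 (edgeR adjusted p = 0.054), and Cdk9, which acts on the same polymerase, had a log2 fold change of 0.028 (SE 0.18). Cdk6, the other kinase of D-type cyclins, was at 20.01 ± 4.97 CPM in 129 and 45.5 ± 27.4 CPM in B6 without passing (edgeR adjusted p = 0.16), again named after its values were seen.

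The 7 kinase inhibitor genes had a median of 0.64, with 0 calls by edgeR and limma-voom and 1 gene at an unadjusted p under 0.05. That gene was Cdkn1a, the p53-induced inhibitor p21, the single DESeq2 call, at 248 ± 186 CPM in 129 and 75.2 ± 3.08 CPM in B6 (SD, n = 2 each; log2 fold change 1.72, SE 0.51, edgeR adjusted p = 0.097). Its 129 libraries differed widely, and without 129 replicate 1 the value was 0.64. Without 129 replicate 2 it was 2.34. With germ cell marker scaling it was 2.39 and passed against 0 (edgeR adjusted p = 0.043), where the median of all genes was 0.57. Cdkn2a was at -0.078 (SE 0.24). Of the 8 genes that set kinase activity by phosphate or by binding, 0 were called by edgeR, DESeq2 or limma-voom and 2 were at an unadjusted p under 0.05, with Wee1 at -0.60 (SE 0.22) and Cdc25a at -0.27 (SE 0.22). Of 17 cyclin degradation genes 0 were called by edgeR and limma-voom and 5 were at an unadjusted p under 0.05 (median -0.13). DESeq2 called Fbxo4 higher and Cdc20 and Ube2s, which act in the destruction of cyclin B1, lower; Cdc20 was at -0.90 (SE 0.19, edgeR adjusted p = 0.054). The most abundant, Ddb1 and Skp1a, were at -0.21 (SE 0.20) and -0.40 (SE 0.16).

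**Figure D5:**
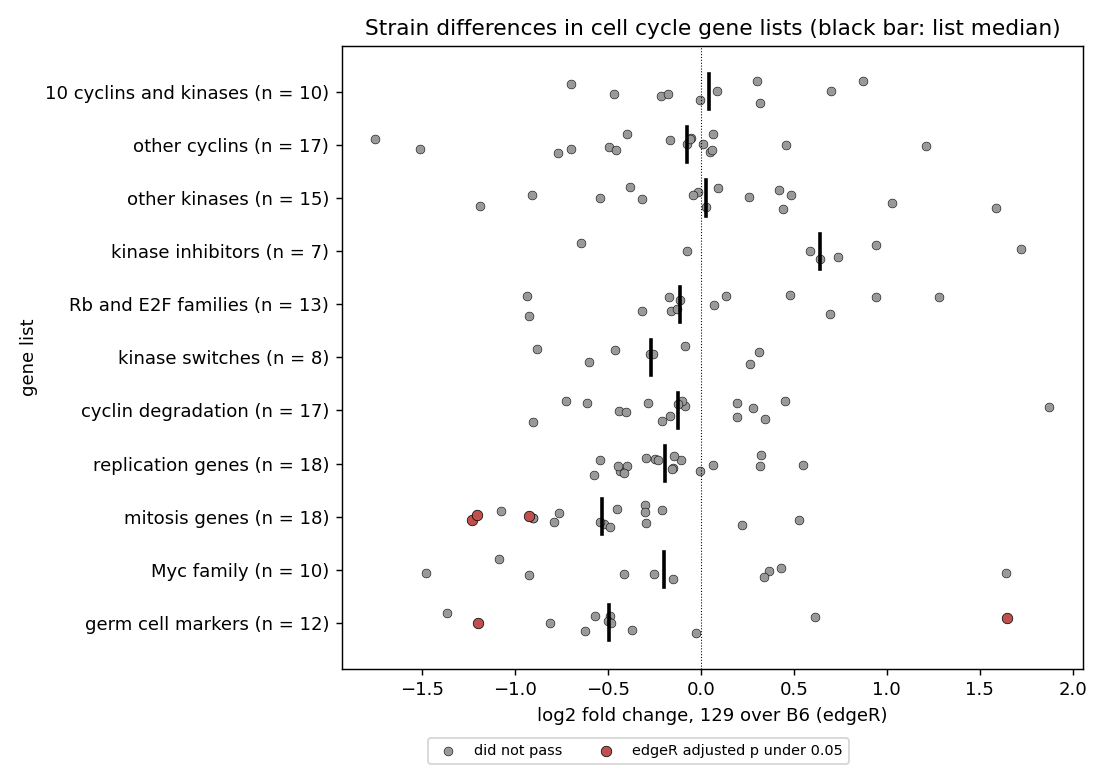
edgeR log2 fold change, 129 over B6 (horizontal axis), of each tested gene in the lists named at left; red points passed at an adjusted p of 0.05, grey points did not, black bars are list medians. The 3 passing mitosis genes all lie below 0, and the median of the 10 cyclins and kinases is 0.040.

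The libraries held germ cell RNA, as labelled, and RNA of some genes used as markers of other cells. Whether the cultured germ cells themselves expressed those genes was not tested. Of 12 germ cell markers, edgeR called Etv5 higher and Uchl1 lower in 129, with a median of -0.50. In both 129 libraries 9 of them were lower, beside 29.2% of all genes. Of 10 fibroblast markers edgeR called Pdgfra higher, but the list's median was -0.96. In both 129 libraries 6 of the 10 were lower and 3 higher, beside 29.2% and 31% of all genes. DESeq2 called 3 of them higher, Dcn (1.52 in edgeR), Pdgfra (1.88) and Pdgfrb (1.94), beside 9.63% of all genes. It called 4 lower, Col1a1 (-1.44 in edgeR), Col3a1 (-1.86), Postn (-2.22) and Fbn1 (-2.28), beside 5.7%. The fibroblast markers summed to 6528 and 2584 CPM in 129 and 5889 and 3758 CPM in B6. Of these, Fn1 alone was at 4067 and 1667 CPM in 129 and 1775 and 1274 CPM in B6. Sertoli markers (9 genes tested, Clu called higher by edgeR, Inhbb at -2.86 called lower by DESeq2) summed to 735 and 427 CPM in 129 and 345 and 467 CPM in B6. Ctsl made up most of these sums, at 513 and 296 CPM in 129 and 298 and 433 CPM in B6. Endothelial markers (5 of 6 tested, Cdh5 and Eng called higher) summed to 196 and 75.6 CPM in 129 and 14.7 and 20.3 CPM in B6. In 129, Cdh5 (87.9 and 27.0 CPM) and Eng (95.9 and 32.6 CPM) made up most of that sum. The log2 fold change was 1.11 for Kdr, 0.31 for Pecam1 and 0.0035 for Tek. Peritubular markers (5, Des called higher by edgeR, Tagln at -2.58 called lower by DESeq2) summed to 39.9 to 92.2 CPM in 129 and 23.4 to 80.5 CPM in B6, macrophage markers (3 of 6 tested, 0 called by edgeR, DESeq2 or limma-voom, and 0 at an unadjusted p under 0.05) to at most 26.4 CPM in any library, and Leydig markers (1 of 6 tested, likewise 0 called) to at most 9.04 CPM. The Leydig enzyme gene Cyp17a1 had 0 and 0 counts in 129 and 2 and 0 in B6. Cyclin genes are expressed in all dividing cells, and the part of any cells other than germ cells in the members' values was not tested. In bulk RNA, fewer cells in a phase or of a type and less RNA per cell cannot be told apart.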

How the data were processed

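Reads per gene were counted by the authors in 4 RNA-seq libraries of GS cells and deposited as raw counts, 1 column per library, with no normalization. TRIzol RNA, a stranded mRNA kit and 76 bp single reads were used, per the labels' protocols and the design text. The tools named in the submitters' processing notes were HTSeq 0.13.5, HISAT2 2.2.1, cutadapt 3.4, bcl2fastq 2.20 and DESeq2 1.30.1, with build mm10; their settings, the annotation release and the strand setting were not given in the sources used here. The build mm10 represents C57BL/6J, so reads of 129 that span strain variants may align less well. Column names matched the library titles.

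The whole table was fitted with edgeR 4.0.16 (R 4.3.3), using filterByExpr, TMM factors of 0.982 to 1.04, a robust quasi-likelihood fit (not the legacy form) and no term besides strain. Benjamini-Hochberg adjustment ran over 16005 genes. Each SE was taken as the size of the log2 fold change divided by the root of F, and intervals use the fit's total degrees of freedom. Lengths and coordinates came from GENCODE M21 (GRCm38), which holds 99.85% of the gene identifiers. Log2 CPM used a prior count of 2. Members and lists were chosen with earlier results of these data known. Genes from the lists were named by rule: up to 2 called genes by p in each direction, otherwise the 2 most abundant. Genes called in marker lists or by DESeq2 alone were named after their values were seen. By the same rule, genes nearest in pattern were named for the members with the largest and the smallest absolute log2 fold change only, and 1 of them is not reported here. The libraries of each strain were not duplicates, with a chi-square per gene of 54.6 in 129 and 43.1 in B6. DESeq2 1.42.0, limma-voom (limma 3.58.1), other scalings and filters, a replicate block and leaving out each library were the alternatives. The fits were tested on simulated data, and the outcome is not reported here.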

Additional observations from a re-analysis of the deposited data

How the results depend on the processing

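Of 392 recomputed log2 fold changes (28 named genes, 14 alternatives), 334 kept their direction and their side of the threshold, 31 changed sign, 14 came to pass and 13 no longer passed. Genes called, 457 with all libraries, were 1052 with library totals, 1021 with upper-quartile factors, 1553 with germ cell marker scaling, 260 with no filter, 150 with a stricter filter, 2455 with DESeq2 and 263 with limma-voom, and 0 (without B6 replicate 1) to 827 (without 129 replicate 2) with a library left out, where 2203 to 4093 genes had an unadjusted p under 0.05. Higher genes were 64.3% of calls in the main setting and 93.6% with germ cell marker scaling. Members called, 0 with all libraries, were 1 (Ccnd2) with library totals or upper-quartile factors, 2 (Ccnd1, Ccnd2) with germ cell marker scaling and 2 (Ccnd2, Ccnb1) with DESeq2, and 0 without any 1 library, where 1 to 4 members had an unadjusted p under 0.05. Over all genes tested, deviations of same-numbered libraries were nearly uncorrelated (-0.014). A shift shared by same-numbered libraries in part of the genes was not tested. A replicate block gave 844 calls and 0 members, with Ccnd2 at 0.87.

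Signs turned with germ cell marker scaling for Ccnd3 (0.57), Ccne2 (0.32), Ccna2 (0.067), Cdk1 (0.37), Cdkn2a (0.49), Tfdp1 (0.43), Cdc25a (0.26), Ddb1 (0.38), Skp1a (0.16), Mcm2 (0.53), Mcm4 (0.39) and Mxd4 (0.33), by the construction of that scaling, which moved the median of all genes to 0.57. They turned for Ccnd3 and Mcm2 with library totals (0.039 and 0.041), upper-quartile factors (0.0089 and 0.011) and the stricter filter (0.034 and 0.029). With a library left out, Ccnd3 ranged from -0.13 to 0.093, Ccne1 from -0.033 to 0.67, Cdk2 from -0.090 to 0.25, Ccni from -0.0027 to 0.083, Cdk9 from -0.066 to 0.12, Cdkn2a from -0.28 to 0.11, Mcm2 from -0.19 to 0.16 and Mcm4 from -0.39 to 0.070. Ccnd2 ranged from 0.71 to 1.02 and Ccnb1 from -0.84 to -0.56. Top2a did not pass in 9 of the alternatives and Mki67 in 4. The Ccnd1 share difference of -0.33 percentage points was 1.71 with the coding length, and -4.76 to 4.10 with a library left out. The strain difference in the log2 ratio of Cdk4 to Cdk2 (129 minus B6) was 0.24 with all libraries. It was -6.0e-05 without 129 replicate 1, and 0.48 without 129 replicate 2. With a library left out, the lone library of its strain was assumed to vary like those of the other strain. For changes other than those of the germ cell marker scaling the cause was not tested.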
